A study of Homo sapiens and Mus musculus with 47 samples.

Results

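SETD5-AS1 and the genes beside it on human chromosome 3, THUMPD3, SETD5 and SRGAP3, were followed through every human library of a Chrom-seq study. The 4 genes were taken by name, and each name matched 1 of the 57820 gene models in the count tables. Chrom-seq marks RNA close to a histone modification in living cells. A reader domain that binds the modification gathers the peroxidase APEX2, which couples biotin-aniline to neighbouring RNA so that the RNA can be captured. Of the 47 samples in the series, 35 human libraries were used.

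Both cell lines are human, HEK293T, an embryonic kidney line, and HCT116, a colorectal cancer line. The RNA-seq set held 17 HEK293T libraries. Its 6 groups were a control, cells with the CBX7 reader, and cells given an antisense oligonucleotide (ASO) against SETD5-AS1, against LINC00641, against LINC00662, or the negative control ASOXNC23, called the control ASO here. There were 3 libraries per group, but 2 for the LINC00641 ASO. The HEK293T Chrom-seq set had 3 libraries each of TAF3, TAF3Control, CBX7 and dPC, and the HCT116 set had 3 libraries each of TAF3 and a control. TAF3 carries a plant homeodomain that binds H3K4me3, a mark of active promoters. CBX7 and dPC (Drosophila Polycomb) carry chromodomains that bind H3K27me3, a mark of repressed chromatin. The Chrom-seq control constructs had the peptide array without a reader. In Chrom-seq, constructs were expressed for 48 h. Labelling used 500 µM biotin-aniline during 30 min, followed by 1 min of 1 mM H2O2. The study calls its replicates independent, and neither it nor the labels say whether they were separate cultures, so p-values measure the spread between libraries, which may be technical. In bulk RNA, fewer expressing cells and less RNA per cell cannot be told apart.

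Antisense long noncoding RNAs such as SETD5-AS1 are transcribed from the strand opposite to a neighbouring gene, and some are known to act on the genes beside them. SETD5 encodes a SET-domain protein found with the histone deacetylase HDAC3 and with the PAF1 elongation complex, and its loss in people causes intellectual disability. THUMPD3 encodes a tRNA methyltransferase that works with TRMT112. SRGAP3 encodes a GTPase-activating protein of the Slit and Robo pathway, which guides growing axons. An ASO of the kind used for knockdown pairs with its target RNA, and RNase H then cuts the RNA strand.

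The model of SETD5-AS1 overlaps those of THUMPD3, SETD5 and SRGAP3 in position. SETD5-AS1 (ENSG00000206573.4, hg19 chromosome 3, 9391373 to 9440263, minus strand) spans 48.9 kb. THUMPD3 (ENSG00000134077.11, 9404526 to 9428475, plus strand) lies wholly inside that span on the other strand. SETD5 (ENSG00000168137.11, 9439299 to 9520924, plus strand) starts inside it and shares 965 bases in a head-to-head arrangement. SRGAP3 (ENSG00000196220.11, 9022275 to 9404737, minus strand) lies on the same strand as SETD5-AS1 and shares 13365 bases with its end. Another model, RP11-380O24.1, shares 13615 bases of the same strand and had 0 counts in all 35 libraries, so it was not tested.

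The overlaps bear on what the counts mean. The strand setting of the read counting is not given in the sources used here. THUMPD3 had more counts than SETD5-AS1 in 23 of 35 libraries, although its span is contained in that of SETD5-AS1. Among the HEK293T Chrom-seq libraries this number was 0. Counting over whole spans without strand would have given THUMPD3 no more reads than SETD5-AS1 if shared reads were kept, and about none if they were dropped. For HEK293T Chrom-seq the counts cannot tell the first of these cases apart. Reads in the stretch that SRGAP3 and SETD5-AS1 share cannot be told apart by strand, and their part in the values below was not tested.

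The oligonucleotides show where SETD5-AS1 was targeted. The study lists 3 ASOs against it and does not state which of them entered the RNA-seq cells. They are printed 5′ to 3′ as ordered, beside the control ASO.
SETD5-AS1-ASO-1: atcaatgaggatgtcatcac
SETD5-AS1-ASO-2: tcttgctatcatgacaatag
SETD5-AS1-ASO-3: cttacgcaacggataaagcc
ASOXNC23: ttctccgaacgtgtcacgtt
Each SETD5-AS1 ASO had 1 exact match in GRCh37, on the plus strand, so each is complementary to the minus-strand RNA. The control ASO had 0 exact matches. All 3 sites lie within 134 bases of chromosome 3, given here on the plus strand with the ASO sites in capitals.
chr3:9432018-9432151: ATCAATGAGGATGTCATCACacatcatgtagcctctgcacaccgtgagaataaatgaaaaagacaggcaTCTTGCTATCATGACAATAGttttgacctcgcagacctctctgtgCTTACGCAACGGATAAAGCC
In the GENCODE v44 annotation lifted to GRCh37, 35 of 39 transcripts of this gene, renamed THUMPD3-AS1 there, span the sites, and in all 35 the sites are exonic. No exon of another gene covers them. ASO-1 starts 3543 bases beyond the end of THUMPD3, and ASO-3 ends 7148 bases before the start of SETD5, so the sites lie in the 10823 bases between these genes. Within the spans of THUMPD3, SETD5 and SRGAP3, read on their RNA strand, the nearest partial match of any of the 3 ASOs had 5 mismatches. That of the control ASO had 5 mismatches in THUMPD3, 5 in SRGAP3, 7 in SETD5 and 6 in SETD5-AS1.

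SETD5-AS1 was reduced by its own ASO in all 3 libraries. It had 57, 56 and 50 counts there, which is 4.70, 4.25 and 3.93 CPM (counts scaled to a common library size, by TMM over the 17 RNA-seq libraries). With the control ASO it had 52.7, 53.4 and 53.6 CPM. The groups lie far apart, and the log2 fold change was -3.62 ± 0.11 (SE), 12.3-fold lower, with an edgeR adjusted p of 3.7e-13. Genes are called here at an adjusted p under 0.05 over all genes tested and an absolute log2 fold change of 0.75 or more, and 24.4% of all genes tested in this comparison were called.

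The control ASO libraries stood above all other groups for SETD5-AS1. The control without ASO had 29.2, 30.0 and 32.4 CPM, and the CBX7 reader group had 38.0, 30.6 and 34.9 CPM. With the LINC00641 ASO the values were 29.0 and 30.6 CPM, and with the LINC00662 ASO they were 29.6, 28.3 and 28.4 CPM. These 4 groups overlapped with their neighbours in the order of means, and all lay below the lowest control ASO library. SETD5-AS1 was therefore also lower with the ASOs that do not target it, by 0.82 ± 0.10 on the log2 scale with LINC00641 (edgeR adjusted p of 5.1e-07) and by 0.83 ± 0.08 with LINC00662 (edgeR adjusted p of 2.5e-09). In these comparisons 22.5% and 24.9% of all genes were called.

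Against the ASOs that do not target it, the reduction of SETD5-AS1 was smaller in size. It was 6.90-fold lower than with the LINC00641 ASO, a log2 fold change of -2.79 ± 0.14 (edgeR adjusted p of 3.0e-08), where 1.72% of all genes were called. Relative to the LINC00662 ASO the difference was -2.73 ± 0.12 (edgeR adjusted p of 1.2e-11), with 11.1% of all genes called. SETD5-AS1 was called in each of these 5 ASO comparisons.

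**Figure D1:**
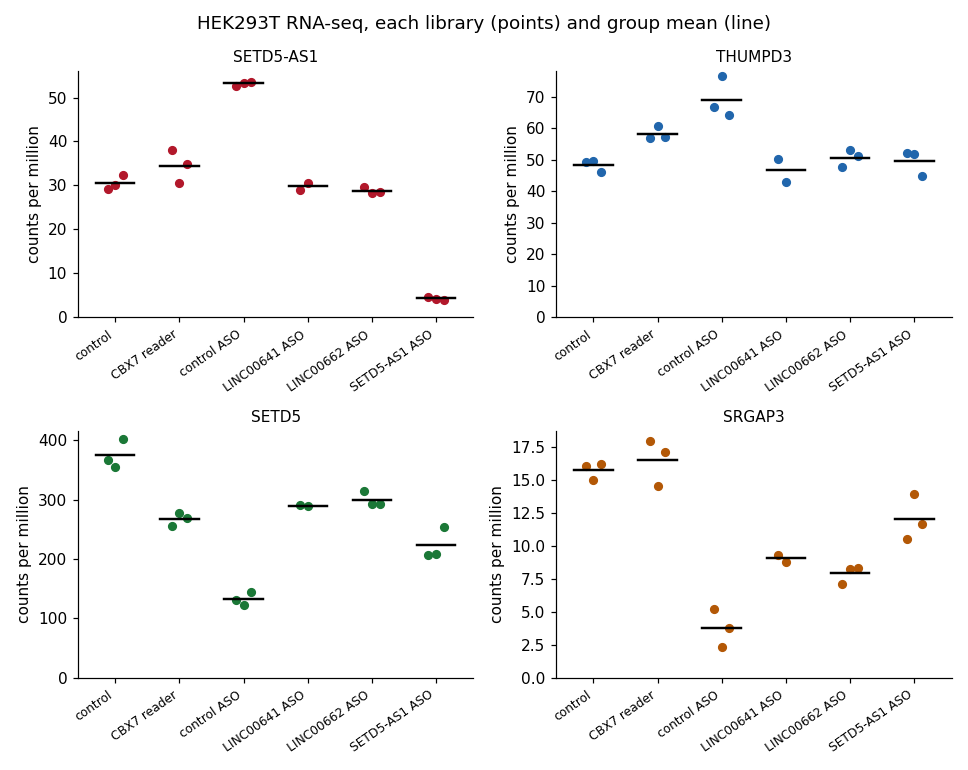
Level of each gene in the 17 HEK293T RNA-seq libraries, in CPM on a linear axis from 0; points are libraries and lines are group means. SETD5-AS1 sits at 3.93 to 4.70 with its own ASO, and the control ASO group is the highest for SETD5-AS1 and THUMPD3 and the lowest for SETD5 and SRGAP3.

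SETD5, which starts head-to-head with SETD5-AS1, was higher than with the control ASO, and its difference from the other targeting ASOs lay under the fold threshold. With the SETD5-AS1 ASO it had 207, 208 and 254 CPM, and with the control ASO 131, 123 and 145 CPM. These groups do not overlap, and SETD5 was 1.69-fold higher, a log2 fold change of 0.75 ± 0.09 that lies on the calling threshold (edgeR adjusted p of 2.5e-06). Leaving out control ASO replicate 1, control ASO replicate 2 or SETD5-AS1 ASO replicate 3 gave 0.74, 0.69 and 0.65, under the threshold. The LINC00641 ASO libraries had 291 and 289 CPM, and the LINC00662 ASO libraries 314, 293 and 293 CPM. SETD5 was thus higher with these ASOs too, by 1.13 ± 0.08 and 1.23 ± 0.07 on the log2 scale (edgeR adjusted p of 1.2e-09 and 1.0e-13). The 3 comparisons share the control ASO libraries.

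Against the LINC00641 and LINC00662 ASOs, SETD5 was lower with the SETD5-AS1 ASO. All 3 of its libraries were below all 5 libraries of those groups. The log2 differences were -0.37 ± 0.10 (95% interval -0.58 to -0.15) and -0.41 ± 0.08 (-0.58 to -0.24), with edgeR adjusted p of 0.044 and 8.6e-04. Neither reached the fold threshold, so SETD5 was not called in either. Against LINC00641 the edgeR adjusted p was 0.083 with library size alone and 0.097 with a replicate block. It was 0.13 to 0.23 when LINC00641 ASO replicate 2 or 3, or SETD5-AS1 ASO replicate 1 or 2, was left out, with differences of -0.37 to -0.31. The control without ASO had the highest SETD5 levels, 367, 355 and 402 CPM, and no library of any other group reached them. In the order of means the control ASO group was lowest at 133 ± 11.1 CPM, followed by the SETD5-AS1 ASO at 223 ± 27.1, the CBX7 reader at 267 (lowest 255, highest 277), the LINC00641 ASO at 290 ± 1.50, the LINC00662 ASO at 300 ± 11.8 and the control at 374 ± 24.3 (SD, n = 3 each, 2 for LINC00641). Neighbouring groups in this order did not overlap, although the SETD5-AS1 ASO and CBX7 groups were separated by 254 against 255 CPM.

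SRGAP3 followed SETD5 in being lowest with the control ASO. It had 5.17, 2.34 and 3.77 CPM there, from 67, 27 and 42 counts. With the SETD5-AS1 ASO it had 10.5, 13.9 and 11.6 CPM, 3.17-fold higher, a log2 fold change of 1.67 ± 0.21 (edgeR adjusted p of 3.8e-06). The other ASO groups lay between, at 9.31 and 8.79 CPM with LINC00641 and at 7.11, 8.24 and 8.32 CPM with LINC00662. Their log2 fold changes over the control ASO were 1.26 ± 0.23 and 1.10 ± 0.21 (edgeR adjusted p of 1.4e-04 and 7.6e-05). The SETD5-AS1 ASO libraries were above every library of both groups, by 0.41 ± 0.16 against LINC00641 (edgeR adjusted p of 0.15) and by 0.62 ± 0.15 against LINC00662 (edgeR adjusted p of 0.0032), and neither difference was called. The control and CBX7 groups were higher still, at 15.0 to 16.2 and 14.5 to 17.9 CPM.

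THUMPD3, nested in SETD5-AS1, was not called in any ASO comparison. With the SETD5-AS1 ASO it had 52.2, 51.8 and 44.8 CPM, and with the control ASO 66.6, 76.5 and 64.0 CPM. The difference was -0.47 ± 0.09 on the log2 scale (edgeR adjusted p of 3.3e-04), under the fold threshold, and it was -0.55 ± 0.10 and -0.39 ± 0.08 with the LINC00641 and LINC00662 ASOs. Against those ASOs the SETD5-AS1 ASO gave 0.10 (95% interval -0.12 to 0.31) and -0.01 (-0.19 to 0.16). The control without ASO had 49.4, 49.7 and 46.2 CPM, and its range overlapped those of the 3 targeting ASO groups. The control ASO libraries and the CBX7 libraries, at a mean of 58.3 ± 2.22 CPM (SD, n = 3), lay above every SETD5-AS1 ASO library. Against the LINC00641 and LINC00662 ASOs, where the THUMPD3 ranges overlapped, SETD5-AS1, which spans THUMPD3 on the other strand, was 6.90-fold and 6.63-fold lower.

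**Figure D2:**
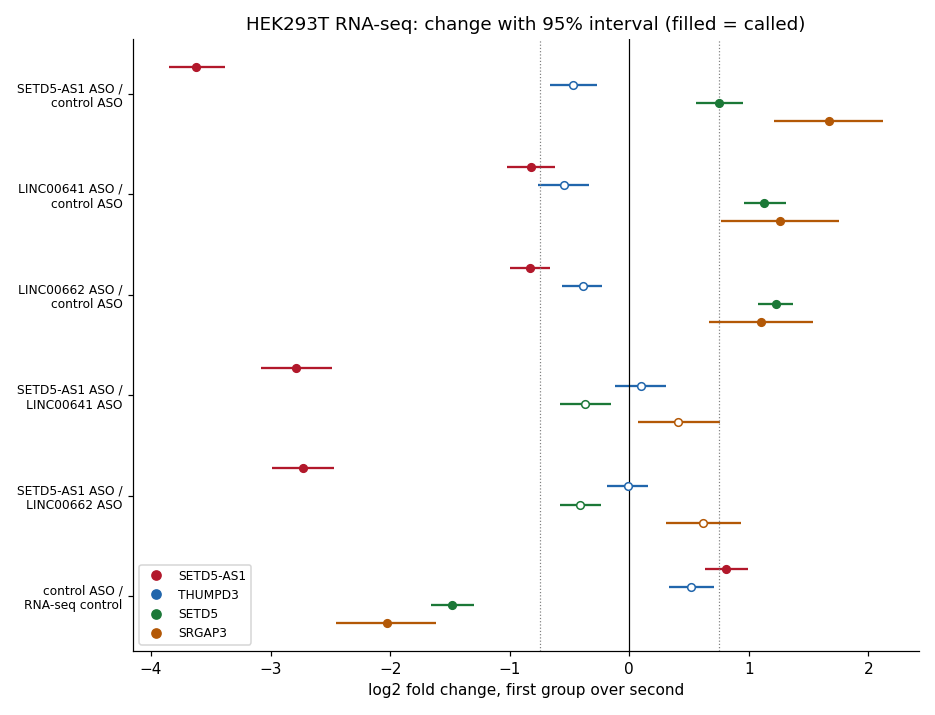
Log2 fold changes of the 4 genes in the 6 RNA-seq comparisons that involve an ASO, with 95% intervals; filled points were called and dotted lines mark the fold threshold of 0.75. SETD5-AS1 is left of zero in each of the 5 upper comparisons, and SETD5 lies right of zero against the control ASO and left of zero against the LINC00641 and LINC00662 ASOs.

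The control ASO group was also set against the RNA-seq control. These libraries stand in separate tables, so table and treatment cannot be told apart. SETD5-AS1 was 1.75-fold higher with the control ASO (log2 0.81 ± 0.09, edgeR adjusted p of 4.7e-07). SETD5 was 2.79-fold lower (-1.48 ± 0.09, edgeR adjusted p of 5.2e-10) and SRGAP3 4.10-fold lower (-2.03 ± 0.20, edgeR adjusted p of 1.7e-07). THUMPD3 differed by 0.52 ± 0.09 (edgeR adjusted p of 1.0e-04), under the fold threshold. In this comparison 32.5% of all genes were called. SETD5-AS1, SETD5 and SRGAP3 thus moved in the reverse of the direction seen with each targeting ASO against the control ASO, and these comparisons share the control ASO libraries.

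The ratio of counts within a library does not depend on scaling between libraries. SETD5-AS1 counts were 1.55% to 2.27% of SETD5 counts with the SETD5-AS1 ASO, and 36.9% to 43.2% with the control ASO. The other groups lay between, from 7.95% to 14.9%. Relative to THUMPD3, SETD5-AS1 had 8.20% to 9.00% with its own ASO, and 50.4% to 83.7% over the other 14 libraries. No library of another group fell into the range of the SETD5-AS1 ASO libraries for either ratio. Each of the 10 exact permutation tests, two-sided, gave p = 0.10, the smallest these group sizes allow, and an adjusted value of 0.10.

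RNA-seq of cells with the CBX7 reader was compared with the RNA-seq control. The paper set its CBX7 RNA-seq against untreated HEK293T cells. If the control is those cells, transfection, APEX2, the reader and any labelling cannot be told apart. Neither edgeR nor DESeq2 called any of the 4, against 7.66% of all genes called by edgeR, and 2 had an unadjusted edgeR p under 0.05. Over all genes, 5317 of 18204 passed the stricter cut of an edgeR adjusted p under 0.05. SETD5 had 255, 277 and 269 CPM against 367, 355 and 402 in the control, a log2 difference of -0.49 ± 0.07 (edgeR adjusted p of 1.9e-04) under the fold threshold, with no overlap between the groups. THUMPD3 differed by 0.27 ± 0.08 (edgeR adjusted p of 0.022). Leaving out each library gave 0.23 to 0.30 for it, with an edgeR adjusted p of 0.011 to 0.079. The intervals for SETD5-AS1 and SRGAP3 were -0.04 to 0.39 and -0.19 to 0.33.

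Near H3K27me3, the CBX7 and dPC readers were compared in HEK293T Chrom-seq. SETD5-AS1 had 62.7, 73.2 and 69.1 CPM with CBX7 and 44.5, 55.0 and 43.1 CPM with dPC. Every CBX7 library was above every dPC library, by 0.52 ± 0.11 on the log2 scale, 1.44-fold (edgeR adjusted p of 0.0095). This is under the fold threshold. Leaving out each library gave 0.46 to 0.64. The edgeR adjusted p was then 1.9e-05 without dPC replicate 2 and up to 0.066 without dPC replicate 1. Neither edgeR nor DESeq2 called any of the 4 genes, 2 had an unadjusted edgeR p under 0.05, and edgeR called 1.24% of all genes. An edgeR adjusted p under 0.05, a stricter cut than the unadjusted one, was met by 1155 of 18762 genes. THUMPD3 and SETD5 gave -0.08 (95% interval -0.31 to 0.16) and -0.01 (-0.18 to 0.17). SRGAP3 had 15.4, 12.3 and 12.9 CPM against 11.2, 10.4 and 9.49, a difference of 0.38 ± 0.15 (edgeR adjusted p of 0.14). Both readers bind the same mark, and a reader-free control for these libraries was not analysed here.

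Near H3K4me3 in HEK293T cells, the TAF3 reader was compared with its control. None of the 4 genes was called by edgeR or DESeq2, while edgeR called 40.6% of all genes. Of the 4, 2 had an unadjusted edgeR p under 0.05. Over all genes, 10684 of 16752 passed the stricter cut of an edgeR adjusted p under 0.05. SETD5-AS1 had 59.1, 59.7 and 53.8 CPM with TAF3 and 57.2, 51.9 and 51.5 CPM without, and the groups overlap (log2 0.11, 95% interval -0.09 to 0.31). SETD5 had 163, 159 and 170 CPM against 159, 185 and 168 (-0.06, interval -0.23 to 0.10). THUMPD3 had 39.0, 30.8 and 33.9 CPM against 41.2, 46.8 and 40.6, with no overlap, a difference of -0.34 ± 0.12 on the log2 scale (edgeR adjusted p of 0.012). Without TAF3 replicate 2 it was -0.22 (edgeR adjusted p of 0.16), and the DESeq2 adjusted p was 0.066. SRGAP3 had 23.9, 21.4 and 20.2 CPM against 11.9, 17.4 and 20.3, a difference of 0.38 ± 0.16 (edgeR adjusted p of 0.034) that rests on 55 to 103 counts per library. Without TAF3Control replicate 1 it was 0.21 (edgeR adjusted p of 0.28), over a range of 0.21 to 0.54 when each library was left out. The adjusted p was 0.11 with DESeq2 and 0.061 with all 4 HEK293T Chrom-seq groups in one edgeR fit.

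The scaling sets the direction of some of these differences. With library size alone, the median log2 fold change over all genes was -0.46 in this comparison, against 0.01 with TMM. SETD5-AS1 then had -0.37, SETD5 -0.55, SRGAP3 -0.10 and THUMPD3 -0.81, and THUMPD3 was called. THUMPD3 kept its sign on both scales, and SETD5-AS1 and SRGAP3 changed theirs.

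In HCT116 cells, THUMPD3 was higher with the TAF3 reader. It had 82.4, 77.9 and 79.3 CPM against 57.5, 63.3 and 63.1 in the control, with no overlap, a log2 difference of 0.38 ± 0.07 (edgeR adjusted p of 9.7e-06). SETD5 had 274, 263 and 258 CPM against 286, 297 and 306, a difference of -0.16 ± 0.05 (edgeR adjusted p of 0.014). SETD5-AS1 had 21.9 ± 1.19 CPM against 19.9 ± 0.795 (SD, n = 3 each; log2 0.14, 95% interval -0.05 to 0.34), and SRGAP3 gave -0.28 (interval -0.54 to -0.02, edgeR adjusted p of 0.092). None was called by edgeR or DESeq2, and edgeR called 6.62% of all genes. Of the 4, 3 had an unadjusted edgeR p under 0.05. Over all genes, 6528 of 18731 passed the stricter cut of an edgeR adjusted p under 0.05.

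**Figure D3:**
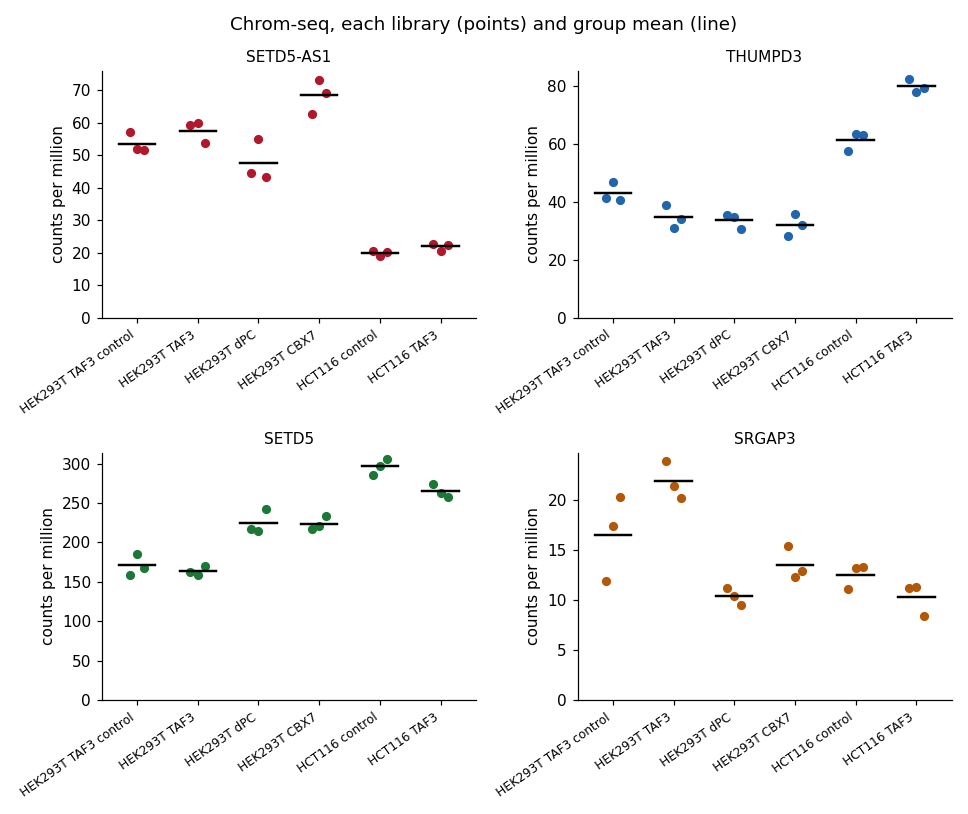
Level of each gene in the 18 Chrom-seq libraries, in CPM on a linear axis from 0; points are libraries and lines are group means, and the 2 cell lines were scaled separately. SETD5-AS1 is higher with CBX7 at 62.7 to 73.2 than with dPC at 43.1 to 55.0. CBX7 and dPC were not tested against TAF3 or TAF3Control. THUMPD3 in HCT116 is higher with TAF3 at 77.9 to 82.4 than in its control at 57.5 to 63.3.

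The TAF3 effect on THUMPD3 differed between the cell lines. The effect in HEK293T minus that in HCT116 was -0.71 ± 0.13 (edgeR adjusted p of 4.6e-06). For SRGAP3 it was 0.67 ± 0.21 (edgeR adjusted p of 0.0064). Both lie under the fold threshold, and 35.1% of all genes were called for this difference. By edgeR adjusted p under 0.05 alone, 9392 of the 18984 genes tested passed, so meeting it does not set these genes apart. Without TAF3Control replicate 3 of HEK293T, THUMPD3 and SRGAP3 reached -0.75 and 0.83 and were called. THUMPD3 was also called without TAF3 replicate 1 of HEK293T (-0.79), and SRGAP3 without control replicate 1 of HCT116 (0.75). SETD5-AS1 and SETD5 gave -0.02 (95% interval -0.30 to 0.25) and 0.11 (-0.09 to 0.30). The HEK293T TAF3 and TAF3Control libraries held 3941942 to 6837312 counts, fewer than the 14213105 to 17445889 of HCT116.

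Beyond the 4 genes, the neighbourhood within 1 Mb held 70 further gene models. The 9 that overlap SETD5-AS1 or lie within 250 kb had 0 to 7 counts in any library, and none was tested in a HEK293T comparison. The nearest tested genes started over 250 kb away. Of the 33 tested models within 1 Mb, 9 were called with the SETD5-AS1 ASO against the control ASO, 5 higher and 4 lower, a median log2 fold change of 0.24 against 0.03 for all genes. The share lies close to the 24.4% of all genes. By size of change the leading ones were GHRLOS at 1.72 ± 0.45, the pseudogene CIDECP at -1.55 ± 0.12, OXTR, the oxytocin receptor, at -1.19 ± 0.23, TATDN2 at 1.18 ± 0.22 and OGG1, a DNA repair glycosylase, at 1.08 ± 0.14. GHRLOS overlaps GHRL, OGG1 overlaps CAMK1 and OXTR lies inside CAV3, each on the other strand, so their reads depend on the strand setting. TATDN2 shares most of its span with RP11-438J1.1 on the same strand.

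Against the LINC00641 ASO, 4 of 34 neighbours were called, where 1.72% of all genes were. SSUH2 had a log2 fold change of -3.12 ± 0.36 (edgeR adjusted p of 9.9e-05, a mean of 28.0 counts). The pseudogene AC034193.5 had 1.06 ± 0.09, PRRT3 0.92 ± 0.20 and CIDECP 0.81 ± 0.18. Set against the control ASO, SSUH2 gave 1.86 ± 0.32 and CIDECP -2.35 ± 0.15 with the LINC00641 ASO. With the SETD5-AS1 ASO against the control ASO, CIDECP gave -1.55 ± 0.12, AC034193.5 0.31 and PRRT3 0.27. Against the LINC00662 ASO, with 11.1% of all genes called, 1 of 34 was, RAD18, an E3 ubiquitin ligase of DNA damage tolerance, at 1.83 ± 0.09 (edgeR adjusted p of 3.6e-11). Against the control ASO, RAD18 gave -1.93 ± 0.09 with the LINC00662 ASO and -0.16 with the SETD5-AS1 ASO. SSUH2 and RAD18 overlap CAV3, PRRT3 overlaps PRRT3-AS1 and AC034193.5 lies inside EMC3, each on the other strand. Their reads depend on the strand setting too. SETD5-AS1 was the only gene model within 1 Mb that was called lower in all 3 comparisons of its ASO.

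**Figure D4:**
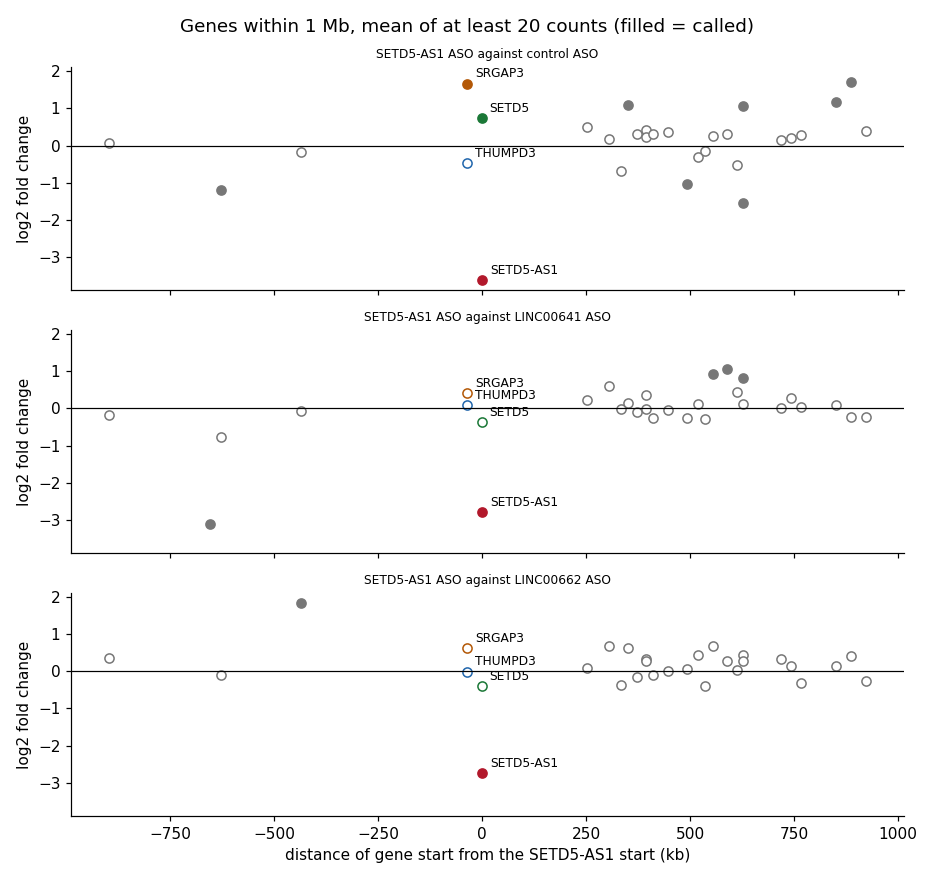
Log2 fold change of genes within 1 Mb averaging 20 counts or more, against the distance of their start from that of SETD5-AS1 in kb, in the 3 comparisons of the SETD5-AS1 ASO; filled points were called. SETD5-AS1 lies at -3.62, -2.79 and -2.73 from top to bottom, and SETD5, about 1 kb away, goes from 0.75 to -0.37 and -0.41.

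In the neighbourhood of H3K4me3 Chrom-seq, 14 of 31 tested neighbours were called in HEK293T, 7 higher and 7 lower, close to the share of all genes. BRPF1, a scaffold of histone acetyltransferase complexes, fell by 1.84 ± 0.10 on the log2 scale and BRK1, a WAVE complex subunit, fell by 1.29 ± 0.15. CPNE9 was higher by 1.25 ± 0.25. In HCT116, 3 of 37 were called, against 6.62% of all genes, and CPNE9 was again higher, by 1.29 ± 0.25 (edgeR adjusted p of 4.2e-05).

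Genes whose products work with those of the 4 genes were followed as a list of 27. With the SETD5-AS1 ASO against the control ASO, 7 of 26 tested were called, 4 higher and 3 lower, with a median of -0.06. This share is close to the 24.4% of all genes called. Of the 13 SETD5 partners and paralogs, 2 were higher and 2 lower. TBL1X, a subunit of a corepressor complex that holds HDAC3, rose by 0.98 ± 0.08 on the log2 scale. CTR9, a PAF1 complex subunit, fell by 0.97 ± 0.08. TRMT112, the THUMPD3 partner, fell by 0.94 ± 0.08. Of the 9 tested genes listed with SRGAP3, the ligands SLIT2 and SLIT3 rose by 1.22 ± 0.08 and 1.03 ± 0.19. Each of these values has an edgeR adjusted p of 1.8e-04 or less.

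Against the LINC00641 ASO, edgeR and DESeq2 called 0 of the same 26 genes, against 1.72% of all genes by edgeR. Of the 26, 8 had an unadjusted edgeR p under 0.05. Over all genes, 1082 of 18337 passed the stricter cut of an edgeR adjusted p under 0.05. Against the LINC00662 ASO, with 11.1% of all genes called, 3 of the 26 were, SRGAP2 at 1.20 ± 0.08, a paralog of SRGAP3, and the receptors ROBO2 at 1.14 ± 0.15 and ROBO1 at 0.83 ± 0.09. SLIT2, SLIT3 and TBL1X were also higher with the LINC00641 ASO than with the control ASO, by 1.73, 1.45 and 1.09, and with the LINC00662 ASO, by 1.20, 1.09 and 1.41. For the control ASO over the RNA-seq control they gave -1.66 for SLIT2, -2.20 for SLIT3 and -1.37 for TBL1X. In HEK293T Chrom-seq with TAF3, 11 of 26 were called, 9 higher and 2 lower, close to the 40.6% of all genes, led by ROBO2 at 2.16 ± 0.12. In HCT116 edgeR and DESeq2 called 0 of 23, with 14 at an unadjusted edgeR p under 0.05. There, 6528 of 18731 genes had an edgeR adjusted p under 0.05.

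Genes with a pattern like that of SETD5-AS1 were sought over the 17 RNA-seq libraries, by Pearson correlation of log2(CPM + 1) among 10907 genes averaging 100 counts or more. The libraries share groups and depth, so the correlations are a description, and the fold changes of the chosen genes come from libraries that chose them and are given with no test. MCM8, a helicase subunit of homologous recombination, and COIL, the Cajal body protein coilin, had r = 0.983, and MTPN, the actin-capping regulator myotrophin, had r = 0.973. With the SETD5-AS1 ASO against the LINC00641 ASO, MTPN was 4.35-fold lower (log2 -2.12 ± 0.08), COIL 2.37-fold lower (-1.24 ± 0.10) and MCM8 1.46-fold lower (-0.55 ± 0.08). Against the control ASO they gave -2.19, -1.44 and -0.69. The LINC00641 ASO against the control ASO gave -0.06, -0.18 and -0.13.

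The sequence printed above as SETD5-AS1-ASO-1 has a site with 4 mismatches in the span of MTPN and another in that of COIL, on the RNA strand. In MCM8 its nearest site has 6 mismatches. The nearest sites of ASO-2 have 6, 7 and 6 mismatches in MTPN, COIL and MCM8, and those of ASO-3 have 6 in each, and which ASO entered the cells is not known. Of 595 gene models of chromosome 3 averaging 100 counts or more, 6.22% hold a site with at most 4 mismatches to ASO-1. For ASO-2 and ASO-3 it was 5.71% and 1.34%. Those models were not matched in span to MTPN, COIL or MCM8. The mismatch numbers describe letters, and pairing of an ASO with the RNAs of MTPN, COIL and MCM8 was not tested.

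The other 3 genes had likeness of a lower or similar degree. SETD5 was most like RRBP1 (r = 0.977), DCLK2 (0.976) and COL13A1 (0.974). THUMPD3 was most like NGFRAP1 (0.929), SPATA5L1 (0.923) and DNAJC8 (0.919), and SRGAP3 was most like EPHB2, TBC1D22A and EVI5L (0.955 each). Between the genes themselves, r was 0.74 for SETD5 and SRGAP3, -0.79 for THUMPD3 and SETD5, and -0.10 for SETD5-AS1 and SETD5.

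The libraries held 3941942 to 17445889 counts. Markers set the cell lines apart. The 6 epithelial genes listed for HCT116, such as EPCAM and KRT19, summed to 4250 to 4900 CPM in HCT116 and to 91.9 to 641 in HEK293T. The 6 genes listed for HEK293T, such as PAX2 and LHX1, summed to 12.1 to 15.9 CPM in HCT116 and to 271 to 698 in HEK293T. The lines differ in these sums, and single genes were shared. A mean of 1 CPM was reached by 4 HCT116 genes in HEK293T RNA-seq and 5 in HEK293T Chrom-seq. In HCT116 it was reached by 3 of the HEK293T genes. Of 8 leukocyte, endothelial and fibroblast markers, 2 reached a mean of 1 CPM in each set.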

How the data were processed

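RNA-seq and Chrom-seq reads were trimmed with fastp 0.23.1, aligned to hg19 with HISAT2 2.1.0 and counted with featureCounts 2.0.1, per the submitters' processing notes, and the authors deposited raw counts per GENCODE gene. All 57820 stated lengths equal the gene span. The HEK293T Chrom-seq file stacks 2 tables, and the lower one, with the TAF3 libraries, has no gene names. Its rows were taken in the order of the upper one: log2 summed counts correlated with r = 0.970 in place and at most 0.166 when shifted by 1 to 5 rows. 6 of its columns match no listed sample and were not used.

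Fits used only the groups compared, with edgeR 4.0.16 in R 4.3.3 (quasi-likelihood test, TMM, Benjamini-Hochberg over all genes tested), for genes with a summed count above 3 per library, following the study's thresholds. Values such as 52.7 CPM use TMM within an assay and cell line, and fold changes are fitted log2 values. Counting intervals were not used, and PCR reads are not independent molecules. The members, gene lists and tests were chosen with earlier results of these data known. Named genes are the 4 members, overlapping models, called neighbours and listed partners by size, and the 3 most alike genes per member. Alternatives were no filter, filterByExpr, DESeq2 1.42.0 or its size factors, library size alone, joint fits, a replicate block and leaving out each library. Code was tested on simulated data. Of 34 replicate pairs, none was a copy (lowest chi-square per gene 2.14). ASO sequences came from the study's oligonucleotide list and sites from GRCh37. One of the marker genes, PECAM1, was not found by that symbol. A partner gene counted in the list is not reported by name here. Mouse tables were not used here. Figures were drawn with matplotlib 3.10.9.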

Additional observations from a re-analysis of the deposited data

Results flagged for a closer look

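The difference of the TAF3 effect between HEK293T and HCT116 was -0.71 ± 0.13 for THUMPD3 and 0.67 ± 0.21 for SRGAP3 on the log2 scale, with edgeR adjusted p of 4.6e-06 and 0.0064 for the interaction of cell line and reader. THUMPD3 gave -0.34 in HEK293T and 0.38 in HCT116, called in neither, with all 3 TAF3 libraries on that side of all 3 control libraries in each line. The HEK293T value was -0.22 without TAF3 replicate 2. SRGAP3 gave 0.38 and -0.28, and its groups overlap in each line. With library size alone the differences were -1.19 and 0.19, where the median of all genes was -0.45. Under TMM, 9392 of the 18984 genes tested had an edgeR adjusted p under 0.05 for this interaction.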

How the results depend on the processing

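Over the 11 comparisons, 536 of 568 values of a single gene under an alternative kept their direction and their side of the calling threshold, and 16 changed sign, of which 0 were called on either side. With library size alone, TAF3 in HEK293T gave -0.37 for SETD5-AS1 and -0.10 for SRGAP3, the difference between the lines gave -0.38 for SETD5, SETD5 gave 0.05 with CBX7 against dPC, and THUMPD3 gave 0.03 with the SETD5-AS1 ASO against LINC00662. With DESeq2 size factors the difference between the lines gave 0.03 for SETD5-AS1. Leaving out each library gave -0.01 to 0.21 and -0.06 to 0.05 for THUMPD3 with the SETD5-AS1 ASO against LINC00641 and LINC00662. With CBX7 against dPC it gave -0.17 to 0.00 for THUMPD3 and -0.04 to 0.05 for SETD5, and for SETD5-AS1 between the lines -0.07 to 0.03. SETD5 with the SETD5-AS1 ASO against the control ASO was just under the threshold with DESeq2, with DESeq2 size factors and with filterByExpr (0.74 each) and with all 4 ASO groups in one fit (0.75), since its value lies on the threshold; leaving out each library gave 0.65 to 0.81. SETD5-AS1 in the same comparison ranged from -3.68 to -3.56 when each library was left out. With library size alone, the number of the 4 genes called became 1 in place of 0 for TAF3 in HEK293T and for the difference between the cell lines, and SETD5-AS1 fell under the threshold with the LINC00641 ASO (-0.75) and for the control ASO against the control (0.73). With no filter the difference between the lines called 1 gene, THUMPD3 (-0.76), and leaving out each library gave 0 to 2. The replicate block left SETD5-AS1 at -3.62 and SETD5 at 0.75 against the control ASO and changed no call of the 4 genes. Same-numbered libraries deviated together with r of -0.11 to 0.28, no comparison had every pair over 0.10, and the labels name no shared batch, so the numbers were not taken as pairs. A window of 250 kb left 0 tested neighbours in the ASO comparisons and gave no value. SRGAP3, with 27 to 67 counts per control ASO library, is the least precise of the 4.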
